A study of Homo sapiens with 6 samples.

Results

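Galectins are lectins that bind β-galactoside sugars on glycoproteins and glycolipids, and 5 genes of this family (LGALS1, LGALS3, LGALS8, LGALS9 and LGALS12) are described here together with LGALS3BP, whose secreted product binds galectin-3. The 6 genes were chosen by name from the 43424 gene symbols of the count files, by an inspection in which their counts and their differences between CIP and DMSO libraries were already known. Those differences are therefore given as descriptions, without a p-value. The study cultured HL-60, a human line from an acute myeloid leukaemia whose genotype is labelled WT, for 6 months with either CIP, a plant extract from Corydalis incisa (Thunb.) Pers., or DMSO. The CIP concentration was raised over that time, beginning at 2 µg/ml and ending at 20 µg/ml, and the stated interest was in genes that act when CIP makes leukaemia cells differentiate. There were 3 CIP libraries and 3 DMSO libraries, all from this 1 line. The labels do not say that replicates were separate cultures, so the spread within a group is that between these libraries and may be technical.

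Galectins are made in the cytosol without a signal peptide and leave cells by an unconventional route. Outside the cell they cross-link glycans of receptors, and inside it they mark vesicles whose membranes have been damaged. Galectin-1 is a prototype form that works as a homodimer, galectin-3 is the chimera form with a collagen-like tail, and galectin-8, galectin-9 and galectin-12 are tandem-repeat forms with a pair of linked sugar-binding domains. In myeloid cells they are known for roles in adhesion, survival and maturation, and galectin-3 was long used as the macrophage antigen Mac-2.

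Libraries were made by QuantSeq, which reads a stretch near the polyadenylated end and so counts about 1 read per transcript whatever its length. Totals were 9314584 to 10868396 counts in CIP libraries and 8143657 to 9759687 in DMSO libraries. Levels are given as CPM, which are counts scaled to the library total, here with TMM factors that correct for differences in composition. Calls were made where the adjusted p was under 0.05 in edgeR's quasi-likelihood test with Benjamini-Hochberg adjustment over 12844 tested genes. The groups differed in most genes: 73.1% were called, 34.9% higher and 38.2% lower in CIP, and the libraries of the groups did not overlap in 75.5%. Lower calls made up 52.3% of all calls, and 63.2% when libraries were scaled by their totals alone, which moved the median log2 difference of all tested genes to -0.26, against -0.03 with TMM. MPO, the myeloperoxidase that HL-60 is known to express, had 77887, 82824 and 84917 counts in CIP libraries and 15, 9 and 9 counts in DMSO libraries. MPO was 1 of 6 promyelocyte markers listed, all of them read in both groups, and 4 were called higher and 2 lower in CIP. ELANE, neutrophil elastase, averaged 332.8 ± 32.9 CPM in CIP and 592.1 ± 48.7 CPM in DMSO, and AZU1, azurocidin, 25.2 ± 4.86 CPM in CIP and 44.1 ± 5.85 CPM in DMSO. PRTN3, proteinase 3, averaged 425.8 ± 70.5 CPM in CIP and 286.9 ± 18.8 CPM in DMSO, and the surface marker CD33 averaged 90.9 ± 5.27 CPM in CIP and 65.7 ± 7.62 CPM in DMSO. In the libraries labelled DMSO, MPO thus goes against the usual description of HL-60 while these other 4 markers were present, and every direction below is that of the libraries so labelled.

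All 6 genes passed the filter on low counts, and LGALS3 did so through its DMSO libraries alone. Calls were made for 5 of the 6, with LGALS9 higher and LGALS1, LGALS3, LGALS8 and LGALS12 lower in CIP, beside the background of 73.1%. The same 5 had libraries that did not overlap between groups, beside 75.5% of all tested genes. Because these contrasts informed the choice of genes, neither count is read as a result. The median log2 difference of the 6 was -1.22, beside -0.03 over all tested genes.

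**Figure D1:**
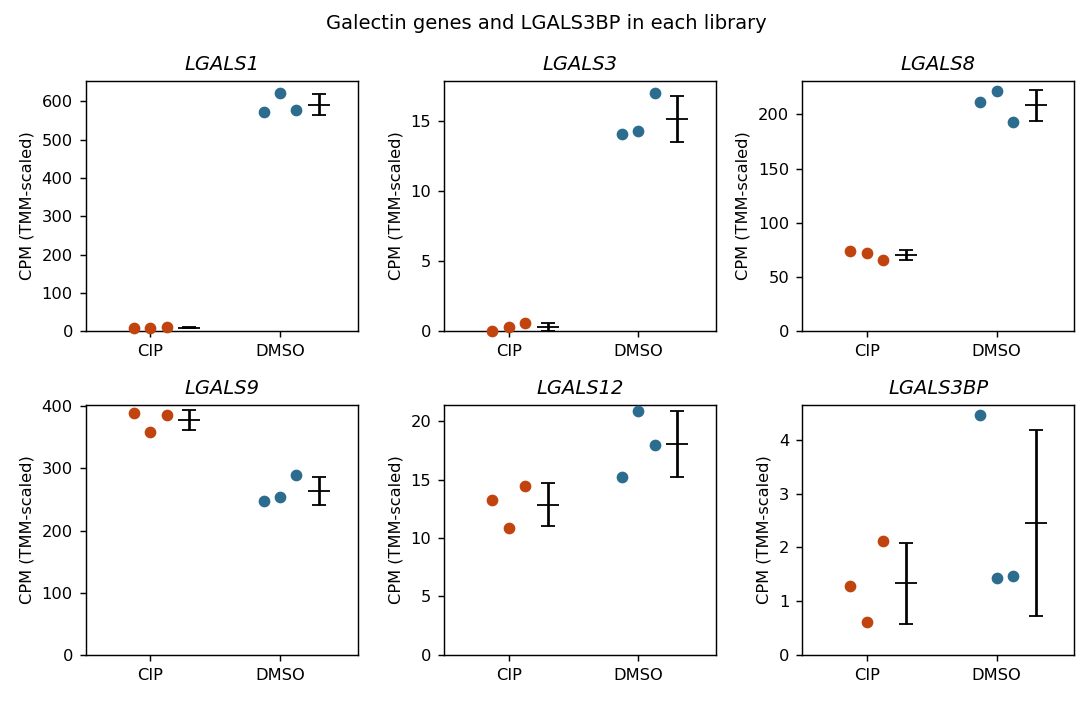
Level of each gene in CPM (vertical axes, each on its own linear scale) in the 3 CIP and the 3 DMSO libraries, each point being 1 library and the bars the group mean ± SD. LGALS1 and LGALS3 lie near the bottom of their axes in CIP libraries, LGALS9 lies higher in all 3 CIP libraries than in any DMSO library, and only LGALS3BP shows overlapping groups.

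Promoter sequence of 300 bases (250 before to 50 after the annotated start) was available from RefSeq, build GRCh38.p14, for LGALS3, LGALS8, LGALS9 and LGALS3BP. It is shown for the gene that was nearly unread in CIP libraries, for the gene that was higher in CIP, and for the gene whose groups overlapped. Capitals mark the GC box GGGCGG or its reverse complement in LGALS3, and the interferon-stimulated response element core, GAAA followed by NN and GAAA, on either strand in LGALS9 and LGALS3BP.
LGALS3, chr14:55129002-55129301, plus strand: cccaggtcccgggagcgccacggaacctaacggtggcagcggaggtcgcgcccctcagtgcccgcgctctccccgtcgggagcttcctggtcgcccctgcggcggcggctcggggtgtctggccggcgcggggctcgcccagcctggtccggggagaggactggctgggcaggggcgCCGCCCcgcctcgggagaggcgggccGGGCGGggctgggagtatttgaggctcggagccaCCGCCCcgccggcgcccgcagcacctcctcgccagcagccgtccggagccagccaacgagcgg
LGALS9, chr17:27630938-27631237, plus strand: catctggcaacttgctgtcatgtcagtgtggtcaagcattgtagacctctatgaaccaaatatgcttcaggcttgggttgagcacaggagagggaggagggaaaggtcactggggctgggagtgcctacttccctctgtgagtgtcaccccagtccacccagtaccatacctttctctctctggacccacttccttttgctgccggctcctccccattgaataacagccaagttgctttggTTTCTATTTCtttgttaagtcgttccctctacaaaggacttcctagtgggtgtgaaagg
LGALS3BP, chr17:78979874-78980173, minus strand: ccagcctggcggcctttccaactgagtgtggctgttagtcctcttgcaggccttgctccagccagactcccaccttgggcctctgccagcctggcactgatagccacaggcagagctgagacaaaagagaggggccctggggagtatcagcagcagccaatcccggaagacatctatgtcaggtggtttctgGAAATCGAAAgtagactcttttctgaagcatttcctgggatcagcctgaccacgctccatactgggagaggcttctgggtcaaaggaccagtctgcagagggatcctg

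The LGALS3 window held 3 GC boxes, which 45.0% of all 35116 RefSeq promoter windows hold at least once. It held no match to the interferon core, to the C/EBP core TTNNGNAA or to the PU.1 core GAGGAA, all searched on both strands. LGALS9 and LGALS3BP each held the interferon core, which 3.6% of windows hold, the LGALS9 copy on the minus strand beginning 9 bases before the start and the LGALS3BP copy beginning 58 bases before it. LGALS3BP also held 2 C/EBP cores, a motif in 36.8% of windows, and the first overlaps its interferon core. The 3 windows of LGALS8 held no interferon core, and 2 of them held GAGGAA, which is in 27.9% of windows. The LGALS8 window with the lowest coordinates also held 2 C/EBP cores, and the one with the highest held 1 GC box. These are matches of letters and say nothing of binding. The LGALS9 and LGALS3BP windows share the interferon core. LGALS9 was higher in CIP and LGALS3BP was not called.

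LGALS1 encodes galectin-1 and lies at chr22:37675636-37679802 on the plus strand (GRCh38, as are all positions here). It had 9.02, 8.09 and 10.8 CPM in CIP libraries, against 573.0, 622.5 and 577.8 CPM in DMSO libraries. Every CIP library was far below every DMSO library, and the DMSO libraries lay close together. The means were 9.30 ± 1.37 CPM in CIP and 591.1 ± 27.3 CPM in DMSO (SD, n = 3 each), a log2 difference of -5.99 ± 0.09 (SE). From the summed counts, 264 in CIP and 17387 in DMSO, the level was 63.5-fold lower in CIP, with a 95% interval of 56.3 to 72.0 that covers counting error only. Of all tested genes, 4.3% had a more negative log2 difference. In bulk RNA, fewer cells that carry a transcript and less of it per cell cannot be told apart.

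LGALS3 encodes galectin-3 and lies at chr14:55129252-55145430 on the plus strand. Its counts were 0, 3 and 6 in CIP libraries, against 142, 149 and 150 in DMSO libraries. In CPM these were 0, 0.307 and 0.605 in CIP and 14.1, 14.3 and 17.0 in DMSO. The first CIP library had no read at all, which at its depth allows up to 0.347 CPM, and the third had the most of its group. The log2 difference was -5.52 ± 0.40, and it was -6.41 when CIP replicate 3 was left out and -4.99 when CIP replicate 1 was. With 9 counts summed over CIP and 441 over DMSO, the ratio was 47.3-fold lower in CIP with a wide counting interval of 24.7 to 104.06.

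Markers of monocytes and macrophages, cells that are rich in galectin-3, moved with both genes. Their summed level was 1.16 to 2.02 CPM in CIP libraries and 18.7 to 21.0 CPM in DMSO libraries. Among the 7 listed, CD68 fell, while the defining genes CD163 and FCGR3A had no count in any library and CD14 had 2 counts in 1 CIP library and 0 elsewhere. Fibroblast markers, which come from cells rich in galectin-1, summed to 50.8 to 126.0 CPM in CIP and 124.8 to 210.8 CPM in DMSO, and 0 of the 4 tested were called. The part of other cell types in these differences was not tested.

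LGALS8 encodes galectin-8, which recruits the autophagy receptor NDP52 to damaged vacuoles, and lies at chr1:236518214-236552981 on the plus strand. It had 74.2, 72.1 and 65.3 CPM in CIP libraries, against 211.3, 221.3 and 193.2 CPM in DMSO libraries. The groups were well apart, and the third library was the lowest of each. Means of 70.5 ± 4.69 CPM in CIP and 208.6 ± 14.3 CPM in DMSO gave a log2 difference of -1.57 ± 0.08. The gene overlaps HEATR1, a ribosome biogenesis gene on the opposite strand, by 3977 bases in the GENCODE annotation. HEATR1 averaged 118.7 ± 6.82 CPM in CIP and 313.2 ± 14.1 CPM in DMSO, a log2 difference of -1.40 ± 0.07. The strand setting of the counting was not available here, and reads of the overlap cannot be assigned with certainty. The antisense LGALS8-AS1 held 1, 2 and 4 counts in CIP libraries and 6, 8 and 12 in DMSO libraries.

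LGALS9 encodes galectin-9, a ligand of the checkpoint receptor TIM-3, and lies at chr17:27631188-27649560 on the plus strand. It had 389.2, 359.0 and 385.8 CPM in CIP libraries, against 246.8, 253.9 and 290.0 CPM in DMSO libraries. All 3 CIP libraries were above all 3 DMSO libraries, by a margin smaller than for LGALS8. Means were 378.0 ± 16.5 CPM in CIP and 263.6 ± 23.1 CPM in DMSO, a log2 difference of 0.52 ± 0.07, and 0.29 with library totals alone. HAVCR2, which encodes TIM-3, had 1, 0 and 0 counts in CIP libraries and 1, 2 and 0 in DMSO libraries, too few to test.

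Reads of LGALS9 are uncertain because of its copies LGALS9B and LGALS9C, whose last 300 transcript bases match those of LGALS9 at 97.7% and 98.3% of positions. In the GENCODE annotation LGALS9 also overlaps the coding gene AC015688.4 on the same strand by 10980 bases. That symbol is not among those counted, and how reads of the overlap were assigned is not known. LGALS9B had 6, 0 and 1 counts in CIP libraries and 14, 29 and 21 in DMSO libraries, and was called lower (log2 difference -3.06 ± 0.71). LGALS9C had 2, 9 and 0 counts in CIP libraries and none in DMSO libraries. The copies are small beside LGALS9 itself, and summing all 3 gave a log2 difference of 0.51.

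LGALS12 encodes galectin-12, a protein of adipocytes and myeloid cells that sits on lipid droplets, and lies at chr11:63506084-63516772 on the plus strand. It had 13.3, 10.9 and 14.4 CPM in CIP libraries, against 15.3, 20.9 and 18.0 CPM in DMSO libraries. The highest CIP library came close to the lowest DMSO library, without overlap. Means were 12.9 ± 1.82 CPM in CIP and 18.0 ± 2.83 CPM in DMSO, a log2 difference of -0.49 ± 0.18. The call was lost without CIP replicate 2 (-0.37) and without DMSO replicate 2 (-0.38).

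LGALS3BP encodes a secreted scavenger-receptor glycoprotein that binds galectin-3, and lies at chr17:78971255-78979923 on the minus strand. It had 1.27, 0.614 and 2.12 CPM in CIP libraries, against 4.46, 1.44 and 1.47 CPM in DMSO libraries. The groups overlapped, the first DMSO library standing alone at the top and the third CIP library above the other DMSO libraries. The log2 difference of -0.88 ± 0.52 did not pass the threshold. It was -0.13 without DMSO replicate 1, and it passed without CIP replicate 3 (-1.38).

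Several genes of connective tissue and epithelium were high in the same libraries. LGALS3BP in DMSO replicate 1 was 3.06 times the mean of the other DMSO libraries, and in CIP replicate 3 it was 2.25 times the mean of the other CIP libraries. The matching ratios were 2.42 and 2.01 for COL3A1, a fibrillar collagen, and 2.75 and 2.27 for KRT18, an epithelial keratin. These 2 are the tested genes nearest to LGALS3BP in pattern, so their ratios are alike by choice. Other listed markers were less alike, with 2.61 and 1.25 for COL1A1, another fibrillar collagen, 1.10 and 3.05 for the matrix proteoglycan gene DCN, and 0.31 and 3.94 for LUM, a related gene with at most 7 counts in any library. Of 10 fibroblast and epithelial markers, 6 were highest of all libraries in DMSO replicate 1, and all 10 were highest of the CIP libraries in CIP replicate 3. COL3A1 had 54, 33 and 96 counts in CIP libraries and 190, 81 and 69 in DMSO libraries. Without both libraries the log2 difference of LGALS3BP was -0.63. The part of other cell types in the LGALS3BP level was not tested.

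**Figure D2:**
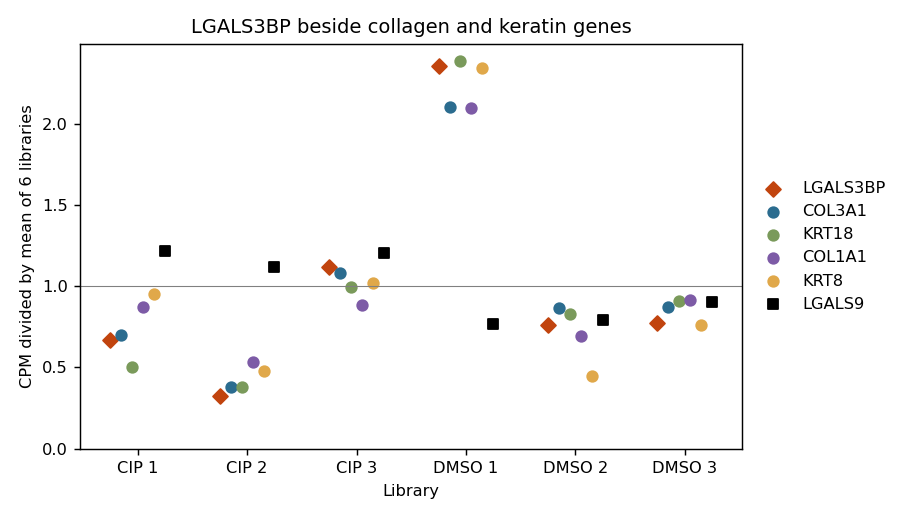
CPM of LGALS3BP, 2 collagen genes, 2 keratin genes and LGALS9 in each library, divided by the gene's mean over all 6 libraries (vertical axis, ratio), CIP libraries left of DMSO libraries. The collagen and keratin genes were picked after their values were seen. LGALS3BP and these 4 genes are all highest in DMSO replicate 1, while LGALS9 is higher in each CIP library than in each DMSO library.

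Read as shares of all galectin-family counts, which compares transcript numbers since each transcript gives about 1 read, the family had a different leading gene in each group. LGALS9 made up 78.1 ± 1.17% in CIP libraries and 24.0 ± 2.13% in DMSO libraries. LGALS1 made up 1.92 ± 0.262% in CIP libraries and 53.8 ± 1.11% in DMSO libraries. LGALS8 held 14.6 ± 1.05% in CIP and 19.0 ± 1.23% in DMSO, and LGALS12 held 2.65 ± 0.319% in CIP and 1.64 ± 0.202% in DMSO. LGALS3 held 0.0635 ± 0.0623% in CIP and 1.38 ± 0.150% in DMSO. The family as a whole summed to 483.8 ± 17.2 CPM in CIP and 1099 ± 36.8 CPM in DMSO. CLC, a further galectin gene given below, held 2.38 ± 0.656% in CIP, overlapping the LGALS1 shares there, and 0% in DMSO. The order by level covers the described genes alone, with LGALS3BP and without CLC. CIP libraries gave LGALS9, LGALS8, LGALS12, LGALS1, LGALS3BP and LGALS3, and DMSO libraries gave LGALS1, LGALS9, LGALS8, LGALS12, LGALS3 and LGALS3BP. LGALS12 and LGALS3 overlapped in DMSO libraries, so that pair is not ordered beyond its spread. In CIP the highest LGALS1 library lay just under the lowest LGALS12 library, and the highest LGALS3 library just under the lowest LGALS3BP library.

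**Figure D3:**
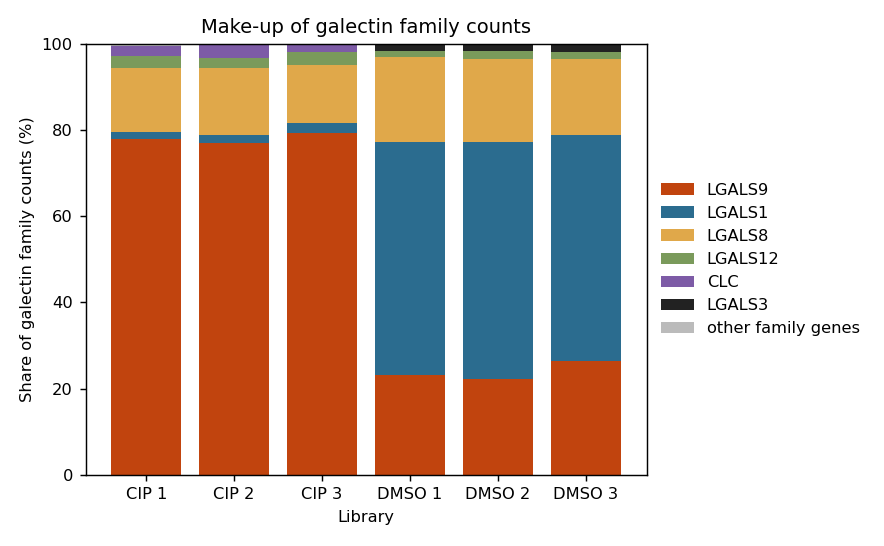
Share of galectin-family counts held by each gene (vertical axis, percent) in each library, CIP libraries left of DMSO libraries, stacked to 100%. LGALS9 holds most counts in all 3 CIP libraries, and LGALS1 holds most in all 3 DMSO libraries.

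Of 12 further galectin genes, 6 had no count in any library (LGALS7, LGALS7B, LGALS13, LGALS14, LGALS16 and GRIFIN) and 2, CLC and LGALS9B, were tested. CLC, which encodes galectin-10, the Charcot-Leyden crystal protein of eosinophils and basophils, had 103, 138 and 83 counts in CIP libraries and 0 in all DMSO libraries. It rose to 11.5 ± 2.90 CPM in CIP, at least 112-fold higher than 3 counts over the DMSO group would give. Beside it, the 4 eosinophil markers listed did not move together: EPX and PRG2 rose, while RNASE2 and RNASE3 fell. LGALS2 had 0 counts in CIP libraries and 4, 4 and 5 in DMSO libraries, and LGALS4 and LGALSL had at most 9 counts in any library.

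Among glycoproteins known to bind galectins, 14 of 21 were tested. Of these 6 rose, 7 fell and 1 did not pass, with a median log2 difference of -0.01. For this and each later list, the background is all tested genes, of which 73.1% were called, 34.9% higher and 38.2% lower. The list counts were not tested against that background. PTPRC, which encodes the phosphatase CD45, averaged 54.7 ± 4.52 CPM in CIP and 185.1 ± 7.15 CPM in DMSO (log2 difference -1.76 ± 0.08, called lower). SPN, which encodes the mucin-like CD43, averaged 1124 ± 49.9 CPM in CIP and 847.6 ± 28.7 CPM in DMSO, a rise of 0.41 ± 0.06. These well-known partners of galectin-1 thus moved in opposite directions. TFRC, the transferrin receptor, rose to 533.1 ± 21.4 CPM in CIP, against 45.6 ± 1.41 CPM in DMSO, and the adhesion molecule ALCAM to 104.1 ± 2.12 CPM in CIP, against 9.14 ± 1.07 CPM in DMSO. ITGA6, an integrin chain, was at 17.3 ± 0.676 CPM in CIP and 108.02 ± 5.30 CPM in DMSO, and MUC1, a transmembrane mucin, at 0.402 ± 0.360 CPM in CIP and 6.44 ± 1.04 CPM in DMSO, both called lower. CD7 and CEACAM8 had no count in any library.

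Galectin ligands are built by the enzymes that branch N-glycans and add N-acetyllactosamine. Of 20 listed, 18 were tested, with 6 higher, 7 lower and 5 not past the threshold (median 0.10), beside the background of 73.1% called. MGAT3, which adds the bisecting residue known to block further branching, had 505 counts summed over CIP libraries and none in DMSO libraries. This was at least 174.5-fold higher than 3 counts over the DMSO group would give. MGAT5, which makes the branch that galectin-3 prefers, fell to 58.2 ± 6.33 CPM in CIP, against 110.4 ± 5.90 CPM in DMSO (log2 difference -0.92 ± 0.09, called lower). MGAT2 and MGAT4B, which start other branches, rose by 1.09 ± 0.19 and 0.76 ± 0.07 on the log2 scale. B3GNT2, which extends lactosamine chains, and B4GALT4, a galactosyltransferase, were lower, by log2 differences of -1.05 ± 0.14 and -1.81 ± 0.29. The branching enzymes named here thus included both directions.

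Of 5 core O-glycan genes, 3 were tested and 1 was called, C1GALT1C1, the chaperone of the core 1 synthase, which fell to 12.9 ± 1.40 CPM in CIP, against 25.8 ± 2.04 CPM in DMSO. Sialic acid can mask galectin sites, and 10 of 11 genes for its transfer and removal were tested. Of these 4 were higher, 4 lower and 2 not past (median -0.04), beside 73.1% called over all tested genes. ST3GAL1, which caps core 1 O-glycans, averaged 14.7 ± 0.578 CPM in CIP and 55.7 ± 3.23 CPM in DMSO, and was called lower. ST3GAL4, another capping enzyme, rose to 31.3 ± 2.23 CPM in CIP, against 8.84 ± 1.47 CPM in DMSO. The lysosomal sialidase NEU1 fell to 17.6 ± 2.02 CPM in CIP, against 50.3 ± 3.90 CPM in DMSO. ST6GAL1, whose α2,6-linked sialic acid blocks galectin-1, was at 61.5 ± 9.86 CPM in CIP and 46.2 ± 5.20 CPM in DMSO, with overlapping libraries, and its call was lost with library totals alone (log2 difference 0.18) and without the libraries high in fibroblast genes (0.22).

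Genes of the response to damaged lysosomes, in which galectin-3, galectin-8 and galectin-9 act, numbered 24 tested of 25. There were 6 higher, 11 lower and 7 not past (median -0.17), beside the background of 73.1% called. CALCOCO2, which encodes NDP52, the receptor that galectin-8 recruits, was at 70.3 ± 6.11 CPM in CIP and 63.9 ± 4.87 CPM in DMSO and did not pass (log2 difference 0.14 ± 0.09, -0.093 with library totals alone). OPTN, another autophagy receptor, averaged 0.394 ± 0.342 CPM in CIP and 32.4 ± 2.52 CPM in DMSO, a log2 difference of -6.33 ± 0.31. It was called lower, with 5, 0 and 6 counts in CIP libraries. TFEB, the transcription factor of lysosome genes, averaged 0.444 ± 0.417 CPM in CIP and 12.5 ± 0.869 CPM in DMSO, and TAX1BP1, a further receptor, 273.4 ± 9.15 CPM in CIP and 647.5 ± 23.1 CPM in DMSO. Both were called lower. CHMP4A, a subunit of the ESCRT membrane-repair machinery, rose to 45.1 ± 3.28 CPM in CIP, against 21.0 ± 3.77 CPM in DMSO.

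Around galectin-12, 9 of 11 lipid-droplet genes were tested, with 1 higher, 6 lower and 2 not past (median -0.92). The background is 34.9% higher and 38.2% lower over all tested genes. VPS13C, a lipid transfer protein that binds galectin-12, fell to 69.0 ± 8.33 CPM in CIP, against 173.2 ± 10.4 CPM in DMSO. The droplet coat gene PLIN3 averaged 120.6 ± 6.90 CPM in CIP and 266.3 ± 8.69 CPM in DMSO, and was called lower. CEBPA, a transcription factor of both adipocytes and granulocytes, was the gene that rose, to 396.1 ± 31.0 CPM in CIP, against 139.8 ± 10.1 CPM in DMSO. Adipocyte markers stayed at or under 0.68 CPM in sum in every library.

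Of 8 intracellular partners of galectin-1 and galectin-3, 5 rose, 2 fell and 1 did not pass (median 0.40), beside the background of 73.1% called. BCL2, the apoptosis inhibitor to which galectin-3 binds, rose to 59.4 ± 1.16 CPM in CIP, against 11.97 ± 0.370 CPM in DMSO. GEMIN4, a splicing partner, and CTNNB1, β-catenin, fell, with log2 differences of -0.92 ± 0.12 and -0.55 ± 0.07. The calls of HRAS and GTF2I were lost with DESeq2 and without DMSO replicate 3, where 4 of the 8 were called in all. Both were also lost with library totals alone and without DMSO replicate 2. Of 16 alternatives, HRAS lost its call in 5 and GTF2I in 7.

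**Figure D4:**
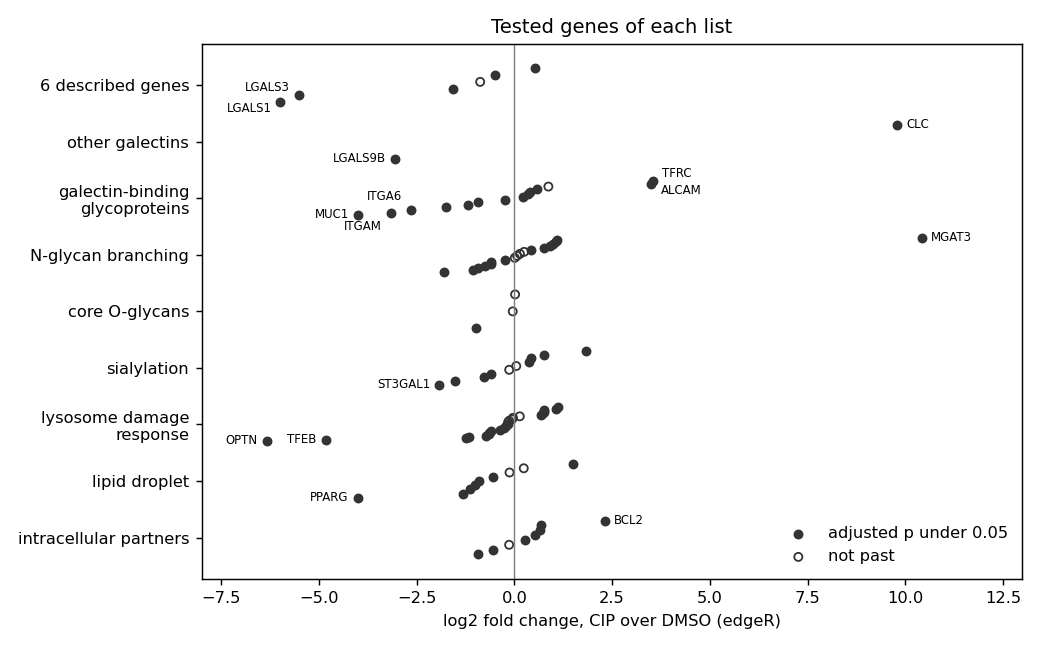
Log2 difference between CIP and DMSO (horizontal axis, positive where CIP is higher) of every tested gene in each list (rows), with filled points for an adjusted p under 0.05 and names for the largest. Each larger list has points on both sides of 0, and CLC and MGAT3, which had no DMSO counts, are drawn at fitted values that depend on the prior count.

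Likeness of pattern was measured as the root-mean-square distance between centred log2(CPM + 0.5) values over the 6 libraries, and counts of genes within 0.2 are given, since the neighbours were taken from all tested genes. LGALS1 lay nearest to SDK1 (0.0957), HOXC6 and MVB12B, with 22 genes within 0.2. LGALS3 lay nearest to PYROXD2 (0.153), DAPK2 and CACNB3, with 7 genes within that distance. LGALS3BP lay nearest to COL3A1 (0.0976), KRT18 and AEBP1, the only 3 genes within that distance. LGALS8 lay nearest to CHRNA5 (0.0434), LGALS9 to CCNY (0.0406) and LGALS12 to NOL4L (0.0468), with 285, 1923 and 734 genes within 0.2.

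Neighbouring genes are given as a description of the surroundings. The 3 nearest tested coding genes on each side were used, a choice made after values had been seen. All 6 neighbours of LGALS8 were called lower, with a median log2 difference of -1.56. These log2 differences ranged from -0.50 for ERO1B to -9.36 for the cardiac calcium channel gene RYR2. Over all tested genes, 38.2% were called lower and 34.9% higher. Many neighbours were far off, by distance between starts, negative toward lower coordinates. For LGALS8 it was 30.8 kb to HEATR1 and 524.0 kb to RYR2. For LGALS9 it was -174.7 kb to KSR1 and -6346.5 kb to MAP2K3. The neighbours of LGALS1 were mixed, with 2 higher, 1 lower and 3 not past. Of these, PDXP was higher, with a log2 difference of 1.92. Of the LGALS3 neighbours 5 were higher and none was lower, opposite to LGALS3 itself. LGALS9 had 4 higher and 1 lower, LGALS12 had 2 higher and 2 lower, and LGALS3BP had 4 higher and 2 lower.

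**Figure D5:**
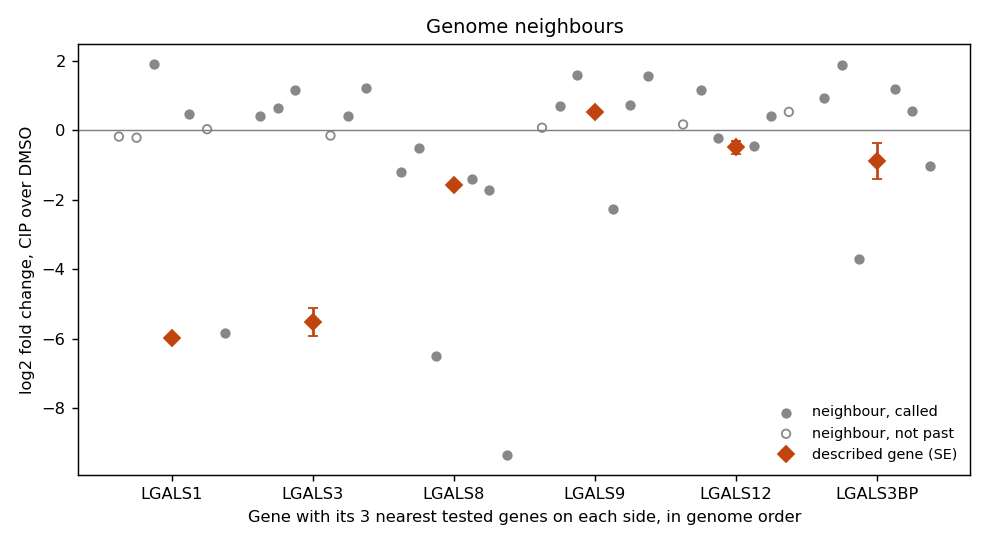
Log2 difference between CIP and DMSO (vertical axis) of each of the 6 genes and of the 3 nearest tested coding genes on each side, in order along the chromosome (horizontal axis, rank and not distance). All neighbours of LGALS8 lie under 0, and those of the other genes lie on both sides or, for LGALS3, mostly above 0.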

How the data were processed

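Read counts per gene symbol were deposited by the authors for 6 libraries, as whole numbers without normalization. Per the submitters' processing notes, the tools were HTSeq, STAR, fastp and bcl2fastq 2.20.0.422 and the build was GRCh38, without roles or settings. Not given in the sources used here were the annotation release, the strand setting, the handling of multi-mapped reads and any use of molecular identifiers. QuantSeq libraries are named in the labels' protocols. Groups and replicate numbers came from the sample titles.

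From the counts, edgeR 4.0.16 (R 4.3.3) was run with filterByExpr, TMM scaling and robust quasi-likelihood fits, with no covariate beside group. CLC and MGAT3 passed this low-count filter through CIP libraries alone, and OPTN, TFEB and MUC1 through DMSO libraries alone. The 2-sided p-values of 12844 genes were adjusted by Benjamini-Hochberg. The SE is the size of the log2 fold change divided by the square root of F. Library depth put 3 counts at 0.288 to 0.347 CPM. Intervals are exact 95% intervals on summed counts. An exact permutation test cannot go below p = 0.10 with 3 against 3 libraries. The steps were tested on simulated data. Within groups, libraries differed by more than sampling noise, so none was counted as a duplicate.

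The members and gene lists were chosen with earlier results of these data known. Named list genes were the 6 members, up to 4 called genes per list with the largest change and 5 CPM or more in the group where they were higher, the most abundant called gene of each list, and genes tied to galectins by function (PTPRC, SPN, HAVCR2, CALCOCO2, MGAT5, ST6GAL1, VPS13C, CLC, LGALSL). The text uses a part of these, and some genes are not reported here. Others, such as the genome neighbours and the silent galectins, were named after their values were seen. Alternatives were other scalings, filters, DESeq2 1.42.0, limma-voom 3.58.1, a replicate block and each library left out. Protein sequences were not used here.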

Additional observations from a re-analysis of the deposited data

How the results depend on the processing

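Under all alternatives run, between 9010 and 10349 genes were called, and LGALS1, LGALS3, LGALS8 and LGALS9 kept their direction and their call. The alternatives reuse the same libraries, and the genes were chosen with these differences known. A kept call is therefore a description and not independent support. The log2 difference of LGALS12 lay between -0.61 and -0.37 with 1 library left out, and its call was lost without CIP replicate 2 and without DMSO replicate 2. That of LGALS3BP lay between -1.38 and -0.13, and was called without CIP replicate 3 alone. With library totals alone, 2 core O-glycan genes were called instead of 1, and CALCOCO2 turned to -0.093. Of 8 intracellular partners, 7 were called, against 4 with DESeq2, and 4 to 7 with 1 library left out. Other galectins called were 4 without the low-count filter and 1 with LGALS9, LGALS9B and LGALS9C summed, against 2. Of 544 values for 34 further genes, 528 stayed, 15 lost their call and 1 reversed. Libraries with the same replicate number did not deviate together (correlations of -0.0434 to -0.0201), and with the number as a replicate block 9061 genes were called, against 9394 without. Causes were not tested. Leaving out CIP replicate 3 and DMSO replicate 1 together, and summing the LGALS9 copies, were chosen after seeing the data. At 0 to 6 counts, the size of the LGALS3 difference is limited by depth.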
